A study of Mus musculus with 10 samples.

Results

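Ducts of the embryonic pancreas were followed through 9 genes of their secreted and surface products, keratins, ion transporters, cilia and transcriptional control. The 9 genes are Spp1, Muc1, Krt19, Krt7, Cftr, Slc4a4, Pkhd1, Dcdc2a and Glis3. They were picked by name from the 54532 genes of a count table of whole pancreas, and not by a threshold on their values. The tissue came from Fgf9-LacZ mice on a C57BL/6J background, in which an inserted cassette leaves the gene for the secreted growth factor Fgf9 without function. Pools labelled Fgf9 -/- and littermate pools labelled as a mix of +/+ and +/- were sequenced at embryonic days 13.5 and 14.5 (E13.5 and E14.5). Each stage had 2 null-labelled and 3 control libraries. A null-labelled pool held 6 or 7 pancreata at E13.5 and 3 or 4 at E14.5, and a control pool held 7 or 12 at E13.5 and 6 to 8 at E14.5. Nothing in the labels says whether the pools of a group are different litters, and each p-value speaks only of the variation among pools.

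In the mouse, the pancreatic epithelium at these stages is a branching tree whose tips hold acinar progenitors and whose trunk holds cells that become ducts or endocrine cells. Mature ducts carry enzymes to the gut, and their cells secrete bicarbonate and water through apical chloride channels and basolateral sodium bicarbonate cotransport. Their apical primary cilia sense flow, and loss of cilium or fibrocystin function is known to give cystic ducts in pancreas, liver and kidney. Most of the 9 genes mark ducts in the adult and are also used by other epithelia, and Spp1 and Slc4a4 are used by cells outside epithelia as well.

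Libraries held 17736769 to 22798257 counts, and mitochondrial genes took 2.3 to 3.39% of them. The epithelial genes Epcam, Cdh1, Krt8 and Krt18 were all detected, and their geometric mean was 293 and 375 CPM (counts scaled to a common library size) in E13.5 null-labelled pools, against 284, 442 and 434 CPM in E13.5 controls. It was 314 and 535 CPM in E14.5 null-labelled pools, against 390, 601 and 627 CPM in E14.5 controls. In all 4 groups the library numbered 1 was the lowest. Fgf9 itself was at 5.57 and 7.66 CPM in E13.5 null-labelled pools, against 18.4, 11.3 and 16.2 CPM in E13.5 controls. At E14.5 levels were 11.7 and 6.14 CPM in null-labelled pools, against 13.6, 8.76 and 6.96 CPM in controls, so its counts overlapped between the genotypes there. A count per gene cannot tell how much of the transcript remains beside the cassette, and the pools are therefore called null-labelled.

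Between genotypes, none of the 9 duct genes passed an adjusted p of 0.05 in edgeR's quasi-likelihood test with Benjamini-Hochberg adjustment over all 18898 genes tested. At E13.5 the share of all genes called was 0.307%. An unadjusted p under 0.05 was reached there by 2 of the 9 duct genes, Krt19 and Pkhd1, and by 1240 of the 18898. At E14.5 the share was 0.111% (0.0794% higher and 0.0317% lower). Here 0 of the 9 had an unadjusted p under 0.05, against 1614 of the 18898. For the mean difference over both stages the share was 1.87% (1.46% called higher). Again 0 of the 9 had an unadjusted p under 0.05, against 2265 of the 18898. DESeq2 and limma-voom also called 0 of the 9 in these 3 comparisons. Of all genes, DESeq2 called 254 at E13.5, 290 at E14.5 and 753 over both stages. The edgeR shares moved with the libraries used. With each library left out in turn, edgeR called 7 to 128 of all genes at E13.5, against 58 with all, 2 to 259 at E14.5, against 21, and 140 to 679 over both stages, against 354. Without the 4 libraries numbered 1, edgeR called 373 of all genes at E13.5 and 2 of the 9, Pkhd1 higher and Spp1 lower. That fit, added after seeing the data, leaves 1 null-labelled and 2 control pools a stage. The lone null-labelled pool is assumed to vary as the controls do, so these calls add no support. The median log2 fold change of the 9 genes was 0.11 at E13.5 and 0.04 at E14.5, against -0.01 and -0.02 over all genes.

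Between stages, Krt19 rose in both genotypes and was the only duct gene called by edgeR. In bulk tissue fewer cells of a type and less RNA per cell cannot be told apart. In controls, E14.5 over E13.5, the share of all genes called higher was 0.778%. In either direction, 4 of the 9 duct genes (Krt19, Muc1, Cftr and Pkhd1) and 2935 of 18898 genes had an unadjusted p under 0.05. In null-labelled pools the share called higher was 0.201%. Of the 9, only Krt19 had an unadjusted p under 0.05 there, against 2602 of 18898 genes. With each library left out in turn, all genes called numbered 0 to 266 in null-labelled pools, against 47 with all, and 0 to 1210 in controls, against 211. DESeq2 called Krt19 and Muc1 in controls and Krt19 alone in null-labelled pools, against 1085 and 650 of all genes. The difference of the genotype effect between the stages was called by edgeR for 0% of all genes and 0 of the 9. Krt19 and Pkhd1 were among the 454 of 18898 genes with an unadjusted p under 0.05. DESeq2 called 4 of all genes and 0 of the 9. All 9 genes passed the filter on low counts, and Cftr did so mainly through E14.5, where 5 of 5 libraries reached its cutoff, against 3 of 5 at E13.5.

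**Figure D1:**
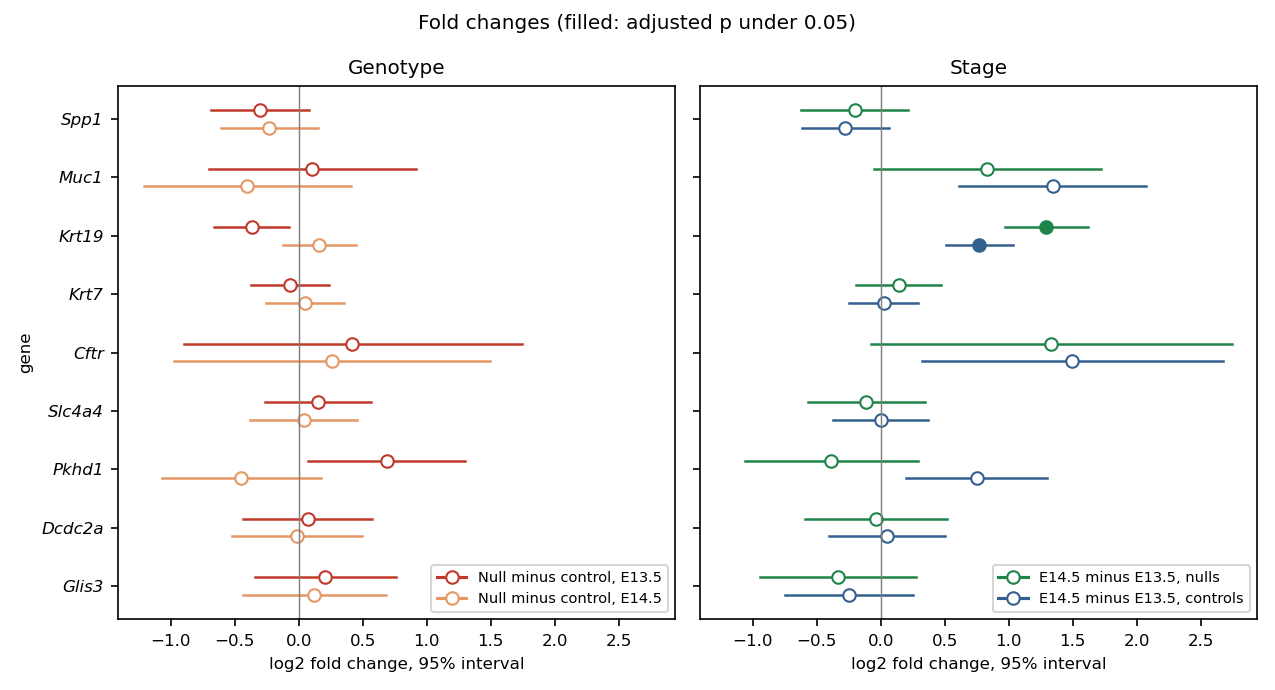
log2 fold changes of the 9 duct genes (points) with 95% intervals (lines), null-labelled minus control on the left and E14.5 minus E13.5 on the right. Filled points passed an adjusted p of 0.05 in edgeR: these are the stage differences of Krt19, 1.29 in null-labelled pools and 0.77 in controls.

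Promoters of the duct genes were looked up in RefSeq (GRCm38.p6), from 250 bases before to 50 after the annotated start. The table held 8 of the 9 genes, and where it listed 2 starts (Spp1 and Slc4a4) the first is used here. Motifs were searched on both strands as the letters AACAAT for SOX, TGTTTAC for FOXA, GGAATG for TEAD and TATAAA for the TATA box. No motif searched overlapped another in these sequences. The TATA letters stood in 2 of the 8 promoters, those of Spp1 and Muc1, and in 14.2% of 27025 RefSeq promoters of the same length. The TEAD letters stood in Muc1 alone, against 14.6% of all, and the SOX and FOXA letters in 0 of the 8, against 10.9% and 3.55% of all. The promoters of Spp1, the most abundant duct gene, and Muc1 are shown because they hold the TATA letters, in capitals, on the strand printed. A match in these letters is a description of the sequence and not a measured site. The Spp1 promoter lies at chr5:104434861-104435160 (plus strand), with the TATA letters 211 bases before the start. The Muc1 promoter lies at chr3:89228806-89229105 (plus strand), with the TATA letters 31 bases before the start.
Spp1: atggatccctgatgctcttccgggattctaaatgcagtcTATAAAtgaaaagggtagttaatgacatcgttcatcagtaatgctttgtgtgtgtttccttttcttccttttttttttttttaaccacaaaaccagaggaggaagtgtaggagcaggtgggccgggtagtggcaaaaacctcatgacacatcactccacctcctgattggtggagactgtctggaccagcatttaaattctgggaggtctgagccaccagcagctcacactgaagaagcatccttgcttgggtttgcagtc
Muc1: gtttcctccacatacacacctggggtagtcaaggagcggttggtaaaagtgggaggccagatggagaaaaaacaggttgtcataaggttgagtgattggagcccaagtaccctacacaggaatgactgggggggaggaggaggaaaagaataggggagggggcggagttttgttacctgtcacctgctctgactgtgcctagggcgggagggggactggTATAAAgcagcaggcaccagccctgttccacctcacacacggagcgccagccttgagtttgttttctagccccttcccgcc

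Per kilobase of exon, Spp1 was the most abundant of the 9 genes and Cftr the least. The median level over the 10 libraries was 432 CPM per kilobase for Spp1, 35 for Krt19, 27.7 for Muc1, 17 for Krt7 and 5.17 for Dcdc2a. It was 3.18 CPM per kilobase for Glis3, 2.15 for Slc4a4, 1.62 for Pkhd1 and 0.139 for Cftr. Spp1 ran from 276 to 529 CPM per kilobase and did not meet Krt19, at 19.8 to 52.8. The ranges of Krt19, Muc1 (14.5 to 61.9) and Krt7 (15.2 to 20.4) overlapped from neighbour to neighbour. Dcdc2a, at 3.46 to 6.51 CPM per kilobase, lay below Krt7 and overlapped Glis3, at 2.18 to 4.85. Glis3 overlapped Slc4a4, at 1.59 to 2.38, which overlapped Pkhd1, at 1.08 to 2.74. Cftr, at 0.0384 to 0.273 CPM per kilobase, lay below all the others. Counted over the principal transcript instead of all exons, Krt7 and Muc1 changed places, with medians of 29.2 and 29 CPM per kilobase.

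**Figure D2:**
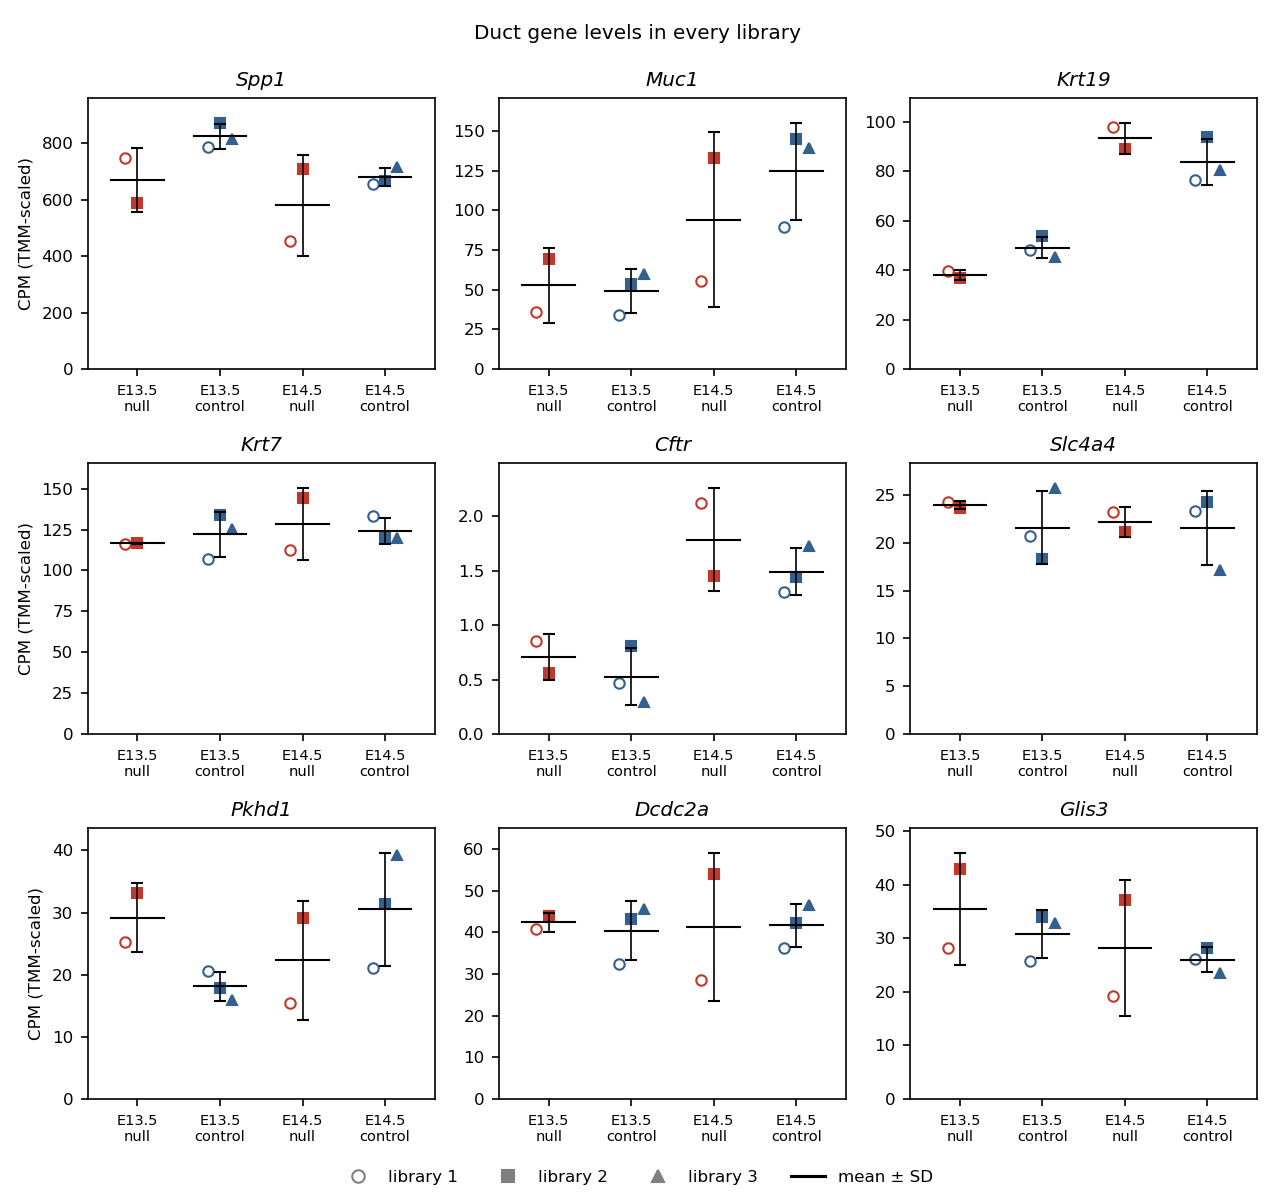
Level of each duct gene in CPM (vertical axes, each from 0) in the 10 libraries, by stage and genotype, with bars for the group mean and SD. Krt19 stands at 89.0 to 97.9 CPM in E14.5 null-labelled pools and at 36.7 to 39.5 CPM in E13.5 null-labelled pools, and open circles mark the libraries numbered 1.

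Spp1 (ENSMUSG00000029304, chromosome 5, 104435118 to 104441050, mm10) encodes osteopontin, a secreted phosphoprotein that binds integrins and CD44 and that is made by ducts, bone cells, kidney and macrophages. It was at 749 and 588 CPM in E13.5 null-labelled pools, against 787, 872 and 813 CPM in E13.5 controls. At E14.5 it was at 454 and 707 CPM in null-labelled pools, against 657, 667 and 717 CPM in controls. Both E13.5 null-labelled pools lay below every E13.5 control, while at E14.5 null-labelled pool 1 was the lowest and pool 2 lay among the controls. The log2 fold change was -0.30 at E13.5 (SE 0.18, edgeR adjusted p = 0.89) and -0.23 at E14.5 (SE 0.18, edgeR adjusted p = 0.82). Over both stages it was -0.27 (SE 0.12, 95% interval -0.54 to 0.01, edgeR adjusted p = 0.43). Without the 4 libraries numbered 1, a choice made after seeing the data, the value was -0.52 at E13.5 and 0.03 at E14.5. That leaves 1 null-labelled pool against 2 controls a stage. At E13.5 it drops the null-labelled pool and the control that lay nearest each other, so the larger gap adds no support.

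Between stages, all 3 E14.5 controls of Spp1, at 657 to 717 CPM, lay below all 3 E13.5 controls, at 787 to 872 CPM, but the log2 difference of -0.28 did not pass (SE 0.16, edgeR adjusted p = 0.44). In null-labelled pools the stages overlapped, and the log2 difference was -0.20 (SE 0.19, edgeR adjusted p = 0.70). Spp1 shares 309 exon bases with Gm42793 on its strand, which held 273 reads over the 10 libraries. Macrophage and bone markers are given beside Spp1 because such cells also make osteopontin. The 13 macrophage markers summed to 321 to 406 CPM in E13.5 null-labelled pools and 286 to 357 CPM in E13.5 controls, and to 382 to 509 CPM in E14.5 null-labelled pools and 241 to 350 CPM in E14.5 controls, with 0 of 13 called at either stage and 2 of 13, Adgre1 and C1qb, higher over both. Of the 2 most abundant, Mrc1 averaged 81.1 CPM in E13.5 null-labelled pools against 90.4 CPM in controls, and 72.5 CPM in E14.5 null-labelled pools against 73.6 CPM in controls. Csf1r averaged 70.5 CPM in E13.5 null-labelled pools against 62.3 CPM in controls, and 72.9 CPM in E14.5 null-labelled pools against 44.4 CPM in controls. The 8 bone and cartilage markers summed to 333 to 443 CPM in E13.5 null-labelled pools and 185 to 343 CPM in E13.5 controls, and to 168 to 203 CPM in E14.5 null-labelled pools and 106 to 175 CPM in E14.5 controls, with 0 of 5 tested called and Col2a1 (148 CPM) and Acan (59.6 CPM) the most abundant over the 10 libraries. Their part in the level of Spp1 was not tested.

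The receptors of osteopontin were looked at as a group of 10 genes, Cd44 and integrin chains among them. edgeR called none at E13.5, where 8 of 10 had a log2 fold change above 0 and the median was 0.25. At E14.5 it also called none, with 9 of 10 above 0 and a median of 0.50. An unadjusted p under 0.05 was reached by 3 of 10 at E13.5 and 6 of 10 at E14.5. Of the 18898 genes tested, 1240 and 1614 reached it at these stages. Itgb1, the most abundant, was at 756 and 691 CPM in E13.5 null-labelled pools, against 632, 682 and 618 CPM in E13.5 controls, a log2 fold change of 0.17 (SE 0.12, edgeR adjusted p = 0.95). DESeq2 also called none at a single stage, and over both stages it called Itga4 and Itgb3, against 0 with edgeR. DESeq2 called 753 of all genes over both stages. Between stages in controls the median was -0.27, with 0 of 10 called by edgeR, 5 at an unadjusted p under 0.05, and Itga8 and Itga9 called by DESeq2. Of the 18898 genes tested, 2935 had such an unadjusted p there, and DESeq2 called 1085 of all genes.

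Muc1 (ENSMUSG00000042784, chromosome 3, 89229057 to 89233381) encodes a transmembrane mucin of the apical surface. It was at 36.0 and 69.7 CPM in E13.5 null-labelled pools, against 33.9, 53.5 and 60.2 CPM in E13.5 controls. At E14.5 levels were 55.3 and 133 CPM in null-labelled pools, against 89.5, 145 and 140 CPM in controls. In each of the 4 groups the library numbered 1 was the lowest, and the genotypes overlapped at both stages. The log2 fold change between genotypes was 0.11 at E13.5 (SE 0.37, 95% interval -0.70 to 0.91, edgeR adjusted p = 1.0) and -0.40 at E14.5 (SE 0.37, 95% interval -1.21 to 0.41, edgeR adjusted p = 0.85).

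Between stages, all 3 E14.5 controls of Muc1 lay above all 3 E13.5 controls, a 2.54-fold difference (log2 1.34, SE 0.34, edgeR adjusted p = 0.070) that missed the threshold. It passed with DESeq2 (adjusted p = 0.035) and with only the control groups in the edgeR fit (adjusted p = 0.023). It also passed without E14.5 control 1 (edgeR adjusted p = 0.020) and without the 4 libraries numbered 1. These settings drop the lowest library of a group and so narrow its spread. The second was chosen after seeing the data and leaves 2 controls a stage, so neither adds support. In null-labelled pools E14.5 pool 1 lay below E13.5 pool 2, and the log2 difference was 0.83 (SE 0.41, edgeR adjusted p = 0.40). Without the 4 libraries numbered 1 the log2 difference in null-labelled pools was 0.93, a single pool of each stage being left.

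Krt19 (ENSMUSG00000020911, chromosome 11, 100140810 to 100148665) encodes a type I keratin of simple epithelia that is widely used as a duct marker. It was at 39.5 and 36.7 CPM in E13.5 null-labelled pools, against 48.2, 53.7 and 45.3 CPM in E13.5 controls. In the E14.5 pools it was at 97.9 and 89.0 CPM in null-labelled pools, against 76.3, 94.0 and 80.7 CPM in controls. The genotypes did not overlap at E13.5, where null-labelled pools were the lower, and overlapped at E14.5. Its genotype difference on the log2 scale was -0.37 at E13.5 (SE 0.13, edgeR unadjusted p = 0.019, adjusted p = 0.52) and 0.16 at E14.5 (SE 0.13, edgeR adjusted p = 0.84). The difference of these effects was 0.53 (SE 0.19, edgeR unadjusted p = 0.016, adjusted p = 1.0).

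Krt19 rose 2.45-fold between stages in null-labelled pools (log2 1.29, SE 0.15, edgeR adjusted p = 0.0087), with E14.5 pools at 97.9 and 89.0 CPM and E13.5 pools at 39.5 and 36.7 CPM. By p-value it ranked 2 of 18898 genes in that comparison. In controls it rose 1.70-fold (log2 0.77, SE 0.12, edgeR adjusted p = 0.018), with E14.5 controls at 76.3 to 94.0 CPM and E13.5 controls at 45.3 to 53.7 CPM. Without E13.5 null 2 the rise in null-labelled pools was 1.24 on the log2 scale and lost its call (edgeR adjusted p = 0.16). The rise in controls lost its call without E13.5 control 1, 2 or 3 (0.76, 0.83 and 0.71, edgeR adjusted p = 0.12, 0.067 and 0.10) and without E14.5 control 2 or 3 (0.68 and 0.80, edgeR adjusted p = 0.13 and 0.082).

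Krt7 (ENSMUSG00000023039, chromosome 15, 101411043 to 101430313) encodes a type II keratin that pairs with type I keratins in duct epithelium. It was at 116 and 117 CPM in E13.5 null-labelled pools, against 107, 134 and 125 CPM in E13.5 controls, and at 113 and 144 CPM in E14.5 null-labelled pools, against 133, 120 and 120 CPM in E14.5 controls. The genotypes overlapped at each stage, and the stages overlapped in each genotype. The log2 fold change between genotypes was -0.07 at E13.5 (95% interval -0.37 to 0.24) and 0.05 at E14.5 (95% interval -0.25 to 0.35). Between stages it was 0.14 in null-labelled pools (95% interval -0.19 to 0.47) and 0.02 in controls (95% interval -0.25 to 0.30). These 4 edgeR adjusted p ran from 0.75 to 1.0. Krt7 shares 77 exon bases with Gm671 on the opposite strand, which held 247 reads over the 10 libraries, and the strand setting of the counting is not given in the sources used here.

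Among 20 other genes of epithelial junctions and keratins, edgeR called 0 in the genotype comparisons, with 0 to 2 at an unadjusted p under 0.05, and 0 between stages, with 4 in null-labelled pools and 5 in controls. DESeq2 also called 0 in these comparisons. Of the 20, 3 had a log2 fold change above 0 at E13.5 and 1 at E14.5, with medians of -0.15 and -0.28. Between stages 16 of 20 were above 0 in null-labelled pools and 18 of 20 in controls, with medians of 0.16 and 0.44. Cdh1, the adhesion protein E-cadherin and the most abundant of them, was at 450 and 668 CPM in E13.5 null-labelled pools against 414, 604 and 614 CPM in controls, and at 404 and 692 CPM in E14.5 null-labelled pools against 544, 900 and 910 CPM in controls. Its log2 fold change was 0.04 at E13.5 (SE 0.28, edgeR adjusted p = 1.0) and -0.52 at E14.5 (SE 0.28, edgeR adjusted p = 0.69). With the replicate number as a block the E14.5 value of Cdh1 was -0.40 and passed (edgeR adjusted p = 0.030).

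Cftr (ENSMUSG00000041301, chromosome 6, 18170687 to 18322768) encodes the apical chloride and bicarbonate channel of ducts that is mutated in cystic fibrosis. Its reads were few. Counts were 16 and 13 in E13.5 null-labelled pools, against 10, 17 and 6 in E13.5 controls, and 38 and 29 in E14.5 null-labelled pools, against 26, 25 and 31 in E14.5 controls. In CPM these were 0.857 and 0.559 in E13.5 null-labelled pools against 0.466, 0.810 and 0.298 in E13.5 controls, and 2.12 and 1.45 in E14.5 null-labelled pools against 1.30, 1.44 and 1.73 in E14.5 controls. The genotypes overlapped at both stages, and every E14.5 library lay above every E13.5 library of its genotype. The log2 difference between stages was 1.33 in null-labelled pools (SE 0.65, edgeR adjusted p = 0.39) and 1.49 in controls (SE 0.54, 95% interval 0.32 to 2.67, edgeR adjusted p = 0.19). Between genotypes it was 0.42 at E13.5 (95% interval -0.90 to 1.74, edgeR adjusted p = 1.0) and 0.26 at E14.5 (95% interval -0.98 to 1.49, edgeR adjusted p = 0.95), and intervals of this width leave a difference within them not detectable at this depth.

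Slc4a4 (ENSMUSG00000060961, chromosome 5, 88886818 to 89239653) encodes the basolateral sodium bicarbonate cotransporter NBCe1. It was at 24.3 and 23.7 CPM in E13.5 null-labelled pools, against 20.7, 18.3 and 25.8 CPM in E13.5 controls. At E14.5 it was at 23.3 and 21.1 CPM in null-labelled pools, against 23.3, 24.3 and 17.2 CPM in controls. Null-labelled pools lay within the controls at both stages. The log2 fold change was 0.15 at E13.5 (95% interval -0.26 to 0.57, edgeR adjusted p = 1.0) and 0.04 at E14.5 (95% interval -0.38 to 0.46, edgeR adjusted p = 0.98). Between stages it was -0.11 in null-labelled pools (95% interval -0.57 to 0.34, edgeR adjusted p = 0.87) and about 0 in controls (95% interval -0.37 to 0.37, edgeR adjusted p = 1.0).

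Of 20 other genes of ion, water and bicarbonate transport that passed the filter, 2 rose between stages in controls, where 1.12% of all genes were called. These were Aqp1, a water channel, and Ano1, a calcium-activated chloride channel. Aqp1 was at 30.3, 44.2 and 40.6 CPM in E14.5 controls, against 17.4, 21.8 and 20.4 CPM in E13.5 controls, a 1.93-fold rise (log2 0.95, SE 0.16, edgeR adjusted p = 0.026). Ano1 was at 51.1, 52.5 and 53.3 CPM in E14.5 controls, against 35.1, 38.8 and 31.8 CPM in E13.5 controls, a 1.48-fold rise (log2 0.57, SE 0.12, edgeR adjusted p = 0.048). For both genes the stages did not overlap, and both calls were lost without any of E13.5 control 1, 2 or 3 and E14.5 control 2 or 3 (edgeR adjusted p = 0.091 to 0.15 for Aqp1 and 0.12 to 0.24 for Ano1). Without E13.5 null 1 or 2, Ano1 had an edgeR adjusted p of 0.057, and with limma-voom an adjusted p of 0.068. In null-labelled pools edgeR called 0 of the 20, with 3 at an unadjusted p under 0.05, and DESeq2 called Ano1. Aqp1 there was at 36.2 and 41.6 CPM at E14.5 against 26.0 and 25.7 CPM at E13.5 (log2 0.59, SE 0.19, edgeR adjusted p = 0.20).

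Between genotypes edgeR called 0 of the 20 transport genes at a single stage, with 2 at an unadjusted p under 0.05 at each, and DESeq2 called Car2 at E14.5. Over both stages edgeR called 1 of the 20, where 1.87% of all genes were called. It was Car2, a cytosolic carbonic anhydrase that supplies bicarbonate. It was at 27.9 and 10.8 CPM in E13.5 null-labelled pools against 12.7, 10.5 and 9.34 CPM in controls, and at 23.6 and 31.1 CPM in E14.5 null-labelled pools against 14.6, 11 and 10.3 CPM in controls. The mean rise was 2.01-fold (log2 1.01, SE 0.23, edgeR adjusted p = 0.044), and only E13.5 null-labelled pool 2 lay among controls. Car2 is also abundant in erythroid cells, and the 9 erythroid markers summed to 1410 to 2220 CPM in E13.5 null-labelled pools and 1070 to 1860 CPM in E13.5 controls, and to 707 to 1260 CPM in E14.5 null-labelled pools and 677 to 1410 CPM in E14.5 controls. Over both stages 2 of the 9 were called higher, the most abundant being Hba-a1 (615 CPM) and Hbb-y (565 CPM) over the 10 libraries, and their part in the rise of Car2 was not tested. The call was lost without E13.5 null 1, where the value was 0.60 (edgeR adjusted p = 0.20), with limma-voom (adjusted p = 0.086), and without E13.5 control 1, 2 or 3, E14.5 control 2 or 3, or E14.5 null 1 or 2 (edgeR adjusted p = 0.061 to 0.13).

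Pkhd1 (ENSMUSG00000043760, chromosome 1, 20057779 to 20618064) encodes fibrocystin, a membrane protein of primary cilia whose loss causes recessive polycystic kidney disease with dilated bile and pancreatic ducts. It was at 25.2 and 33.1 CPM in E13.5 null-labelled pools, against 20.5, 17.9 and 16.0 CPM in E13.5 controls. At E14.5 levels were 15.5 and 29.1 CPM in null-labelled pools, against 21.0, 31.4 and 39.2 CPM in controls. Both E13.5 null-labelled pools lay above every E13.5 control, while at E14.5 null-labelled pool 1 was the lowest of the stage and pool 2 lay among controls. Its genotype difference on the log2 scale was 0.69 at E13.5 (SE 0.28, edgeR unadjusted p = 0.030, adjusted p = 0.65) and -0.45 at E14.5 (SE 0.29, edgeR adjusted p = 0.75). Without the 4 libraries numbered 1, a choice made after seeing the data, the E13.5 value was 0.97, with 1 null-labelled pool against 2 controls. This drops the null-labelled pool and the control that lay nearest each other, so the larger gap adds no support. The difference of the genotype effects was -1.14 (SE 0.40, edgeR unadjusted p = 0.015, adjusted p = 1.0).

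Between stages in controls, Pkhd1 at E14.5 lay above every E13.5 control, a 1.68-fold difference that did not pass (log2 0.75, SE 0.26, edgeR adjusted p = 0.17). It passed without E14.5 control 1, the lowest of the E14.5 controls, at 0.96 (edgeR adjusted p = 0.033). Without the 4 libraries numbered 1, a choice made after seeing the data, the log2 difference was 1.06. In null-labelled pools the stages overlapped, and the log2 difference was -0.39 (SE 0.31, edgeR adjusted p = 0.64).

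Dcdc2a (ENSMUSG00000035910, chromosome 13, 25056004 to 25210706) encodes a doublecortin-domain protein that binds microtubules and lies in the cilium, and its human counterpart is mutated in a cholangiopathy of newborns. It was at 40.8 and 44.1 CPM in E13.5 null-labelled pools, against 32.3, 43.3 and 45.6 CPM in E13.5 controls. In the E14.5 pools it was at 28.7 and 53.9 CPM in null-labelled pools, against 36.3, 42.3 and 46.5 CPM in controls. The 2 null-labelled pools of E14.5 stood at opposite ends, below and above all controls. The log2 fold change was 0.07 at E13.5 (95% interval -0.43 to 0.58, edgeR adjusted p = 1.0) and -0.01 at E14.5 (95% interval -0.52 to 0.49, edgeR adjusted p = 0.99). Between stages it was -0.04 in null-labelled pools (95% interval -0.59 to 0.52) and 0.05 in controls (95% interval -0.41 to 0.50), with edgeR adjusted p of 0.97 and 0.96.

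Of 22 other genes of the primary cilium and of cystic disease that passed the filter, edgeR called 0 in any of the genotype or stage comparisons, with 1 to 4 at an unadjusted p under 0.05 in each. DESeq2 called Pkd2 between stages in null-labelled pools and none of the 22 elsewhere. With edgeR, 17 of the 22 had a log2 fold change above 0 at E13.5 and 12 at E14.5, with medians of 0.10 and 0.05. Between stages 6 of 22 were above 0 in null-labelled pools and 5 of 22 in controls, with medians of -0.19 and -0.15. Bicc1, an RNA-binding protein that is mutated in a mouse polycystic kidney strain, was the most abundant. It was at 151 and 152 CPM in E13.5 null-labelled pools against 124, 139 and 151 CPM in controls, and at 141 and 222 CPM in E14.5 null-labelled pools against 140, 180 and 179 CPM in controls (log2 0.14 and 0.13, edgeR adjusted p = 1.0 and 0.91).

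Glis3 (ENSMUSG00000052942, chromosome 19, 28258851 to 28680077) encodes a zinc finger transcription factor of ducts, endocrine progenitors and beta cells, whose loss in mice gives pancreatic duct dilation and diabetes. It was at 28.1 and 42.9 CPM in E13.5 null-labelled pools, against 25.7, 33.9 and 32.9 CPM in E13.5 controls. At E14.5 it was at 19.3 and 37.2 CPM in null-labelled pools, against 26.1, 28.2 and 23.6 CPM in controls. As for Dcdc2a, the E14.5 null-labelled pools lay below and above all controls. Its genotype difference on the log2 scale was 0.21 at E13.5 (95% interval -0.34 to 0.76, edgeR adjusted p = 1.0) and 0.12 at E14.5 (95% interval -0.44 to 0.68, edgeR adjusted p = 0.94). Between stages it was -0.33 in null-labelled pools (SE 0.28, edgeR adjusted p = 0.66) and -0.25 in controls (SE 0.23, edgeR adjusted p = 0.68).

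Of 11 other transcription factors of ducts and trunk cells, edgeR called 0 at a single stage, with 1 at an unadjusted p under 0.05 at each, and 1 over both stages, where 1.87% of all genes were called. DESeq2 called the same gene at E14.5 and over both stages. It was Onecut2, a cut-homeodomain factor also known from liver, at 4.39 and 2.71 CPM in E13.5 null-labelled pools against 1.49, 1.43 and 0.845 CPM in controls, and at 3.13 and 7.54 CPM in E14.5 null-labelled pools against 1.30, 1.04 and 1.39 CPM in controls. The genotypes did not overlap at either stage, and the mean rise was 3.46-fold (log2 1.79, SE 0.32, edgeR adjusted p = 0.014). The call was lost without E13.5 null 1 (1.61, edgeR adjusted p = 0.077) and without E14.5 null 2 (1.41, edgeR adjusted p = 0.052). Liver genes were higher in the same pools. The 12 liver markers summed to 605 to 655 CPM in E13.5 null-labelled pools and 362 to 501 CPM in E13.5 controls, and to 664 to 702 CPM in E14.5 null-labelled pools and 442 to 515 CPM in E14.5 controls. Over both stages 6 of the 12 were called higher, none of the 12 being at 0 in all libraries, and Afp averaged 177 and 175 CPM in E13.5 and E14.5 null-labelled pools against 75.9 and 58.6 CPM in the controls of those stages. Ttr, the most abundant, averaged 276 and 274 CPM in the E13.5 and E14.5 null-labelled pools against 279 and 322 CPM in the controls of those stages. The part of these genes in the level of Onecut2 was not tested.

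Sox9, the trunk and duct factor needed to keep pancreatic progenitors, was at 155 and 252 CPM in E13.5 null-labelled pools against 131, 162 and 251 CPM in controls. At E14.5 levels were 79.4 and 124 CPM in null-labelled pools, against 130, 116 and 122 CPM in controls. Its log2 fold change was 0.16 at E13.5 (SE 0.27, edgeR adjusted p = 1.0) and -0.27 at E14.5 (SE 0.27, edgeR adjusted p = 0.87). Between stages it was -0.996 in null-labelled pools (SE 0.30, edgeR adjusted p = 0.17) and -0.56 in controls (SE 0.24, edgeR adjusted p = 0.29). DESeq2 called Sox9 in null-labelled pools. Over the 11 factors the median between stages was -0.52 in null-labelled pools and -0.19 in controls, with 0 called by edgeR. Tead2, the most abundant, had a log2 fold change of -0.03 at E13.5 and -0.07 at E14.5 (edgeR adjusted p = 1.0 and 0.92).

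Of 16 other duct surface and secreted genes that passed the filter, edgeR called 0 in every comparison. Between stages DESeq2 called 2 in null-labelled pools (Vtcn1 and Tspan8) and 4 in controls (Vtcn1, Clu, Muc4 and Tff2), against 650 and 1085 of all genes. In the same order of groups, 7 and 6 had an edgeR unadjusted p under 0.05, against 2602 and 2935 of 18898 genes. With edgeR, 14 of 16 were above 0 in null-labelled pools and 14 of 16 in controls, with medians of 0.62 and 0.54, against 0 and 0.01 over all genes. Between genotypes the medians were -0.14 at E13.5 and -0.16 at E14.5. Cd24a, a small anchored surface glycoprotein and the most abundant, was at 406 and 395 CPM in E13.5 null-labelled pools against 486, 530 and 467 CPM in controls, and at 349 and 527 CPM in E14.5 null-labelled pools against 409, 506 and 600 CPM in controls. At E13.5 its genotypes did not overlap (log2 -0.30, SE 0.19, edgeR adjusted p = 0.93).

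Over all 99 companion genes that passed the filter, edgeR called 0 between genotypes at E13.5 with 8 at an unadjusted p under 0.05, and 0 at E14.5 with 13. Of the 18898 genes tested, 1240 and 1614 had such an unadjusted p at these stages. DESeq2 called 0 at E13.5 and 3 at E14.5 (Car2, Tspan8 and Onecut2), and edgeR with the replicate block called 4 at E14.5 (Car2, Cdh1, Itga5 and Onecut2, adjusted p = 0.025 to 0.042). Over both stages edgeR called 2 of 99, near the 1.87% of all genes, and DESeq2 called 5 (Itga4, Car2, Anxa3, Itgb3 and Onecut2), while edgeR with the replicate block called 9, Car2 and Onecut2 with Itga4, Itga5, Itga9, Anxa3 and Glis2 higher and Ehf and Slc9a3r1 lower. Between stages edgeR called 0 of 99 in null-labelled pools with 25 at an unadjusted p under 0.05, and 2 in controls with 26. Of the 18898 genes tested, 2602 and 2935 had such an unadjusted p in the same order. DESeq2 called 6 in null-labelled pools and 9 in controls, against 650 and 1085 of all genes. Between genotypes, DESeq2 called 290 of all genes at E14.5 and 753 over both stages. The replicate block called 464 and 1102 of all genes in the same order.

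Since whole-tissue counts mix epithelium with mesenchyme, each duct gene was also set against the geometric mean of Epcam, Cdh1, Krt8 and Krt18 in the same library. The genotypes were compared over both stages by a two-sided exact permutation test that exchanged labels within a stage. It has 100 arrangements with all libraries, so p is a count of arrangements out of 100. The divisor is the same for all 9 genes, and its 4 genes were at log2 differences of -0.38 (Epcam), -0.24 (Cdh1), -0.17 (Krt8) and -0.32 (Krt18) over both stages, with edgeR adjusted p of 0.38, 0.73, 0.82 and 0.64. Of the 9 genes tested, Dcdc2a had a log2 ratio that was 0.28 higher in null-labelled pools (0.28 at E13.5 and 0.29 at E14.5, exact permutation p = 0.04), with no adjustment over the 9. Dcdc2a by itself differed by 0.03 over both stages (SE 0.16, edgeR adjusted p = 0.97). With labels exchanged within same-numbered pairs instead, a replicate block added after seeing the data, the Dcdc2a ratio differed by 0.26 and was higher in the null-labelled pool in 3 of 4 pairs (E13.5 differences of 0.29 and 0.26, E14.5 differences of -0.03 and 0.52, exact permutation p = 0.25). With 4 pairs this exact permutation test cannot go below p = 0.125. Against Krt8 and Krt18 alone the Dcdc2a difference was 0.25 (exact permutation p = 0.05), and with each library left out in turn the difference ran from 0.22 to 0.35, with exact permutation p from 0.017 to 0.10 and below 0.05 without E14.5 control 1 or E14.5 null 1 alone. Glis3 was 0.40 higher (0.38 at E13.5 and 0.41 at E14.5, exact permutation p = 0.06), and 0.43 higher against Epcam and Cdh1 alone (exact permutation p = 0.03). Cftr was 0.66, Slc4a4 0.39, Pkhd1 0.38, Krt7 0.27, Krt19 0.18 and Muc1 0.06 higher, and Spp1 was -0.01, with exact permutation p from 0.19 to 0.97. For Pkhd1 the difference was 0.87 at E13.5 and -0.11 at E14.5, and for Krt19 it was -0.17 at E13.5 and 0.53 at E14.5.

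**Figure D3:**
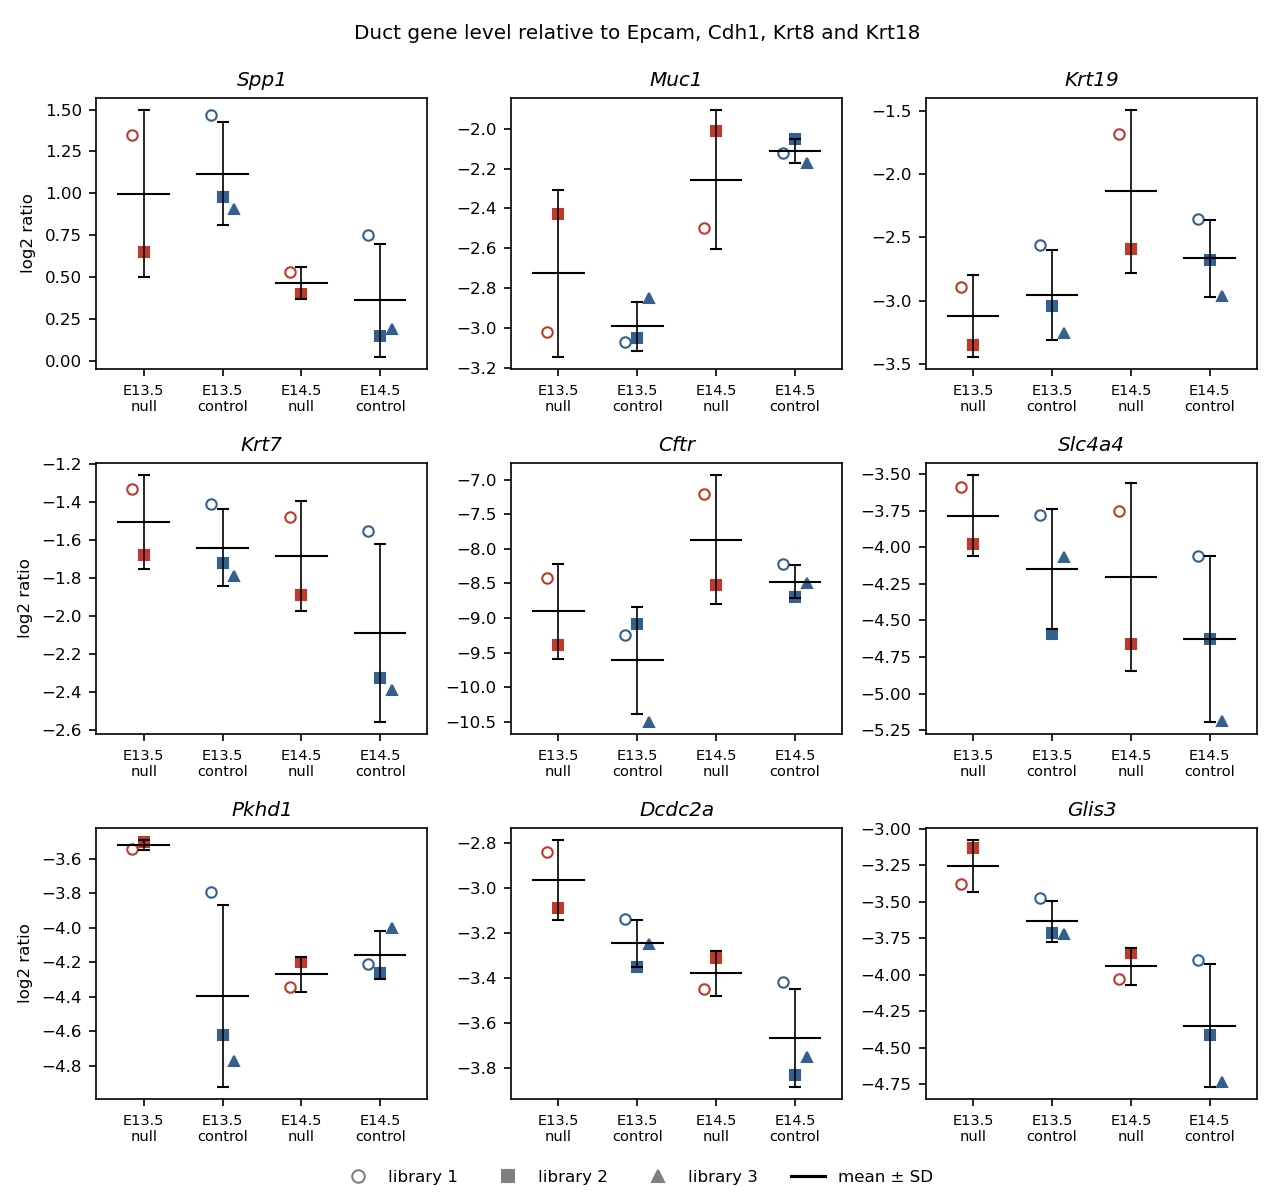
log2 ratio of each duct gene to the geometric mean of Epcam, Cdh1, Krt8 and Krt18 (vertical axes) in the 10 libraries by stage and genotype, with bars for the group mean and SD. For Dcdc2a the null-labelled pools lie 0.28 above controls at E13.5 and 0.29 at E14.5.

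The epithelial level moved between libraries of the same group, and several duct genes moved with it. Muc1 and Dcdc2a lay below their group mean in 4 of 4 libraries numbered 1. Spp1, Krt7, Pkhd1 and Glis3 did so in 3 of 4, Krt19 and Cftr in 2 of 4, and Slc4a4 in 1 of 4. As deviations from the group means over 10 libraries, Muc1 correlated with Dcdc2a at r = 0.90 and with Glis3 at 0.88, and Dcdc2a with Glis3 at 0.81. Krt19 correlated with Cftr at 0.68 and with Muc1 at -0.12. All genes of a library share its epithelial content and depth, and in a group of 2 the deviations are mirror images. The values therefore only describe these pools. Whether the epithelial level accounts for the shared deviations was not tested.

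**Figure D4:**
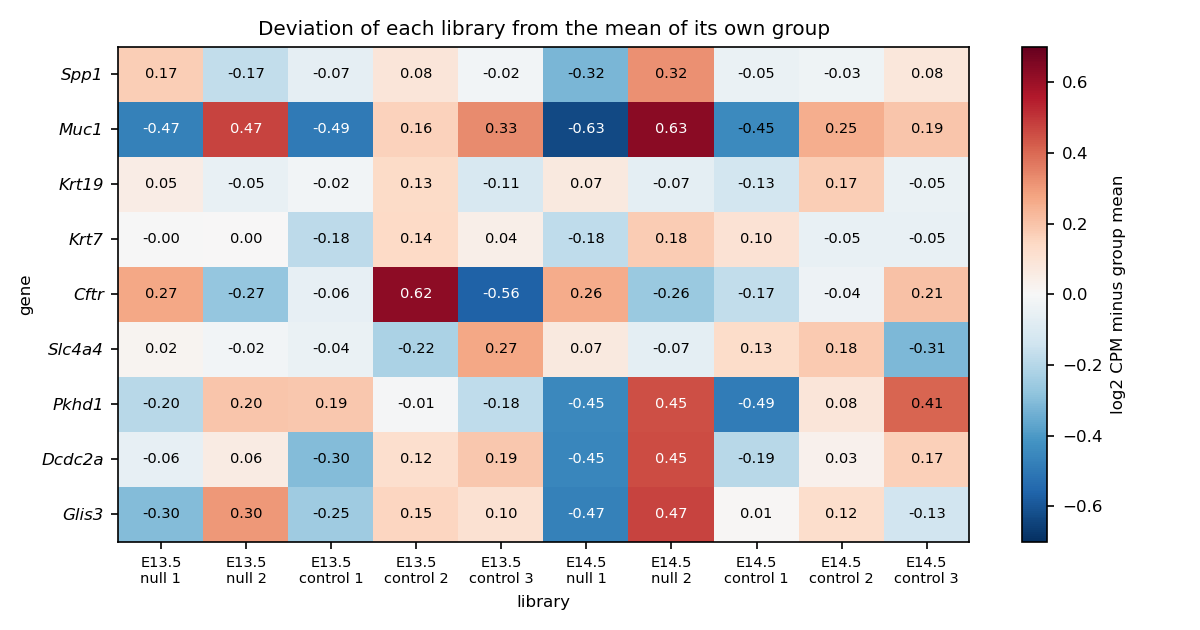
Deviation of each library (columns) from the mean of its own group for each duct gene (rows), on the log2 CPM scale, from blue (lower) to red (higher). Muc1 stands at -0.63 in E14.5 null-labelled pool 1 and 0.63 in pool 2, and at -0.49 in E13.5 control 1.

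Markers of neighbouring tissues that also use duct genes were summed beside them. The 10 mesothelium markers summed to 343 to 390 CPM in E13.5 null-labelled pools and 343 to 521 CPM in E13.5 controls, and to 395 to 514 CPM in E14.5 null-labelled pools and 309 to 535 CPM in E14.5 controls, with Msln called higher at E14.5, and over both stages Msln higher and Lrrn4 and Aldh1a2 lower. Upk3b, the most abundant, averaged 152 CPM in E14.5 null-labelled pools and 86.7 CPM in E14.5 controls. The 7 stomach markers summed to 2.78 to 3.49 CPM in E13.5 null-labelled pools and 1.21 to 2.38 CPM in E13.5 controls, and to 6.75 to 8.74 CPM in E14.5 null-labelled pools and 3.01 to 7.67 CPM in E14.5 controls, with the gastric genes Muc5ac and Tff1 at 0 in all 10 libraries. The 10 intestine markers summed to 12.2 to 13.4 CPM in E13.5 null-labelled pools and 10.7 to 14.4 CPM in E13.5 controls, and to 24.8 to 61.8 CPM in E14.5 null-labelled pools and 13.7 to 23.3 CPM in E14.5 controls. Of these, Lgals4 was at 30.8 CPM in E14.5 null-labelled pool 1 and at 0.795 to 2.45 CPM in the other 9 libraries. The 10 kidney and nephric duct markers summed to 76.2 to 118 CPM in E13.5 null-labelled pools and 73.4 to 92.9 CPM in E13.5 controls, and to 115 to 164 CPM in E14.5 null-labelled pools and 113 to 195 CPM in E14.5 controls. The 12 acinar markers summed to 2840 to 3510 CPM in E13.5 null-labelled pools and 2630 to 4470 CPM in E13.5 controls, and to 7900 to 23600 CPM in E14.5 null-labelled pools and 7410 to 24200 CPM in E14.5 controls. Between stages in controls 7 of the 12 acinar markers were called higher, in the comparison in which Krt19, Aqp1 and Ano1 rose. The 10 mesenchyme markers summed to 8230 to 9820 CPM in E13.5 null-labelled pools and 6160 to 6880 CPM in E13.5 controls, and to 9680 to 14700 CPM in E14.5 null-labelled pools and 5730 to 9130 CPM in E14.5 controls, with Lum and Dcn called higher at both stages and Nkx3-2 lower at E13.5. The 12 endocrine markers summed to 1210 to 1470 CPM in E13.5 null-labelled pools and 1090 to 1530 CPM in E13.5 controls, and to 1100 to 2240 CPM in E14.5 null-labelled pools and 1170 to 1830 CPM in E14.5 controls, with Ins1, Ins2 and Iapp higher at E14.5 in both genotypes. The 10 endothelium markers summed to 627 to 686 CPM in E13.5 null-labelled pools and 450 to 517 CPM in E13.5 controls, and to 545 to 595 CPM in E14.5 null-labelled pools and 486 to 502 CPM in E14.5 controls. The 10 neural and glial markers summed to 290 to 436 CPM in E13.5 null-labelled pools and 177 to 253 CPM in E13.5 controls, and to 256 to 406 CPM in E14.5 null-labelled pools and 175 to 251 CPM in E14.5 controls. The 9 skeletal muscle markers summed to 32.7 to 94 CPM in E13.5 null-labelled pools and 21.9 to 33.6 CPM in E13.5 controls, and to 36.5 to 303 CPM in E14.5 null-labelled pools and 20 to 41.1 CPM in E14.5 controls. Over the 10 libraries the 2 most abundant markers averaged 103 CPM (Upk3b) and 71.6 CPM (Wt1) for mesothelium, 3.03 CPM (Cldn18) and 1.31 CPM (Sox2) for stomach, and 12.2 CPM (Vil1) and 4.57 CPM (Lgals4) for intestine. They averaged 67.8 CPM (Ret) and 34.5 CPM (Nphs1) for kidney, 4740 CPM (Ctrb1) and 2250 CPM (Cpa1) for acinar cells, and 3030 CPM (Col3a1) and 2000 CPM (Col1a1) for mesenchyme. The averages were 622 CPM (Gcg) and 229 CPM (Chgb) for endocrine cells, 126 CPM (Cdh5) and 106 CPM (Kdr) for endothelium, 100 CPM (Erbb3) and 61 CPM (Stmn2) for nerve and glia, and 16.1 CPM (Myh8) and 12.8 CPM (Actc1) for muscle. Over both stages edgeR called 3 of 9 skeletal muscle markers higher in null-labelled pools (Acta1, Actc1 and Myh3), where 1.46% of all genes were called higher. The summed muscle level stood above controls in null-labelled pool 1 alone, at 94 CPM (E13.5) and 303 CPM (E14.5). Null-labelled pool 2, at 32.7 and 36.5 CPM, lay within the controls of its stage. Also called higher by edgeR were 2 of 10 neural and glial markers, Sox10 among them, and 1 of 10 endothelium markers (Tie1). At a single stage edgeR called 0 of these 3 lists. DESeq2 called 5 skeletal muscle, 3 neural and glial and 1 endothelium markers at E14.5, against 290 of all genes. Of the markers tested, edgeR called 0 of 2 for stomach and 0 of 7 for intestine, and Nphs1 alone of 7 for kidney, higher between stages in controls. DESeq2 called Cdh17 and Lgals4 of the intestine list between genotypes at E14.5. The part of these tissues in the levels of the duct genes was not tested.

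For each duct gene the genes most like it over the 10 libraries were found among 15376 genes with a mean of at least 1 CPM, by Pearson's r of log2 CPM. Muc1 was most like Anpep (r = 0.991), an apical aminopeptidase, followed by 5330417C22Rik and Pm20d1 (0.983 each). Krt19 was most like Itih5 (0.979), Rps27l (0.971) and Cycs (0.963). Cftr was most like Stum (0.964), Parp12 (0.963) and the chloride channel gene Ano1 (0.958). Pkhd1 was most like Kif21a (0.948), Hipk2 (0.930) and Sstr3 (0.915), and Dcdc2a most like Ildr1 (0.927), Sec23ip (0.926) and Mfsd13a (0.913). Spp1 was most like Mlh3 (0.945), Zfand6 (0.939) and Cul1 (0.930), and Glis3 most like Cnot6l (0.953), Zbtb14 (0.944) and Gm15475 (0.920). Krt7 was most like Ubxn10 (0.915), with Daglb at 0.866, and Slc4a4 most like B930059L03Rik (0.918), Mpp2 (0.898) and Arhgef11 (0.889). All genes of a library share its stage, epithelial content and depth, which differ between libraries. Each r is also among the highest of 15376, so these values describe the pools only.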

How the data were processed

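Whole embryonic pancreas of 10 pools was profiled by RNA sequencing. The authors deposited raw read counts per gene, and the submitters' processing notes name TopHat, HTSeq, DESeq2 and the build mm10, with no role or version. Gene positions come from the GENCODE M21 annotation of that build, and whether reads were counted by strand is not given in the sources used here. Library totals ran from 17736769 to 22798257 counts, so intervals and tests cover counting error and the spread between pools. No column of the count table was left unused.

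Counts were analysed in R 4.3.3 with edgeR 4.0.16. Genes were kept by filterByExpr (minimum count 10), which left 18898, scaled by TMM, and fitted by quasi-likelihood with 4 group means over all 10 libraries, with Benjamini-Hochberg adjustment over all genes tested and a threshold of 0.05. CPM use TMM factors, and values per kilobase use all exon bases. Intervals are at 95%. Alternatives were DESeq2 1.42.0, limma-voom (limma 3.58.1), RLE scaling, a fit without the filter, a fit of the compared groups alone, replicate number as a block and leaving out each library. Leaving out the 4 libraries numbered 1, and exchanging labels within same-numbered pairs for the epithelial ratio, were added after seeing the data.

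Null-labelled and control pools share replicate numbers. Deviations from the group means correlated between same-numbered pools with r of 0.36 and 0.14 (E13.5), 0.35 and 0.16 (E14.5). Null-labelled pool 2 and control 3, of unlike number, correlated at 0.25 (E13.5) and 0.22 (E14.5). The other null-labelled and control pools of unlike number correlated at -0.36 to -0.14. The edgeR tests between genotypes used no pairing unless the replicate block is named. The labels do not say what a number marks, and in a group of 2 the deviations mirror each other.

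The 9 genes and all gene lists were chosen with earlier results of these data known. All 9 are named in every comparison. Of each companion list, the genes past the threshold are named (up to 3 a direction), or else the most abundant gene, and of each marker list the 2 most abundant genes. Some genes that these rules name are not reported here. Sox9 and any other gene outside the rules were chosen after their values were seen.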

Additional observations from a re-analysis of the deposited data

How the results depend on the processing

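The direction and side of the threshold held for 638 of 726 values of single genes under the alternatives run. Another 40 reversed, 18 newly passed and 30 no longer passed, and the cause was not tested. At E13.5, edgeR called 1 of the 9 duct genes without the filter and 2 without the 4 libraries numbered 1, against 0 in the design used. Without those libraries 1 null-labelled pool a stage is left against 2 controls, and it is assumed to vary as they do. Between stages in controls it called 2 with only the groups compared, 2 with the replicate block, 3 without the filter and 3 without the libraries numbered 1, and DESeq2 called 2, against 1. In null-labelled pools it called 2 without the filter, 2 with the block and 2 without the libraries numbered 1, against 1. The difference of the genotype effects gave 1 without the filter (Pkhd1), against 0.

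Of the 99 companion genes, between genotypes at E13.5 the count without the filter was 1. At E14.5 it was 3 with DESeq2, 7 without the filter, 4 with the block and 3 without the libraries numbered 1. Over both stages it was 5, 8, 9 and 4 in that order, and 1 with limma-voom. Between stages in controls it was 9, 19, 19 and 31 in that order, and 1 with limma-voom, and in null-labelled pools 6, 14, 14 and 20. For the difference of the genotype effects it was 2 without the filter and 1 without the libraries numbered 1. Without the filter, 33383 genes share 1 estimate of spread. Same-numbered pools of the 2 stages correlated at 0.3, 0.039 and 0.16 in controls, so the block does not pair stages there. In edgeR the block changed no genotype call among the 9. Over all genes it called 566 at E13.5, 464 at E14.5 and 1102 over both stages, against 58, 21 and 354, and DESeq2 called 254, 290 and 753. Between stages the block called 896 in null-labelled pools and 1387 in controls, against 47 and 211, and DESeq2 650 and 1085. For all genes, the fit without the filter called 459 at E13.5, 547 at E14.5, 963 over both stages, 888 between stages in null-labelled pools and 1292 in controls, and the fit without the libraries numbered 1 called 373, 260, 733, 1465 and 2289. For the difference of the genotype effects these called 51 and 20 of all genes, DESeq2 4 and the block 13, against 0.

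Some log2 values reversed. Without the libraries numbered 1, Dcdc2a was -0.0106 at E13.5 and 0.28 at E14.5, Spp1 0.027 and Cftr -0.13 at E14.5, Krt7 -0.11 between stages in controls, and Spp1 0.26 and Dcdc2a 0.29 between stages in null-labelled pools. At E14.5, Slc4a4 was -0.10, Dcdc2a 0.0132 and Glis3 -0.00775 with the block, and Dcdc2a 0.000399 with only the groups compared. Slc4a4 between stages in controls was 0.00283 with DESeq2, 0.00135 with limma-voom, 0.00272 with RLE and 0.000278 with only the groups compared. Relative to Epcam and Cdh1, the Spp1 ratio reversed to 0.0257. Other ratios kept their direction. Glis3 was 0.43 relative to Epcam and Cdh1, and Dcdc2a was 0.25 relative to Krt8 and Krt18. Exchanged within same-numbered pairs (a replicate block), Dcdc2a was 0.26.

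With each library left out in turn, all genes called were 7 to 128 at E13.5, 2 to 259 at E14.5, 140 to 679 over both stages, 0 to 266 between stages in null-labelled pools, 0 to 1210 in controls and 0 for the difference of effects. The duct genes called stayed at 0 in the genotype comparisons, and were 0 to 3 between stages in controls and 0 to 1 in null-labelled pools. Companion genes called were 0 to 1 at E14.5, 0 to 4 over both stages, 0 to 12 between stages in controls and 0 to 2 in null-labelled pools. At E13.5 the log2 value ran from -0.45 to 0.51 for Muc1, -0.0651 to 0.17 for Dcdc2a and -0.13 to 0.48 for Glis3. At E14.5 it ran from -0.58 to 0.0537 for Spp1, -1.17 to 0.0929 for Muc1, -0.14 to 0.21 for Krt7, -0.0426 to 0.51 for Cftr, -0.10 to 0.13 for Slc4a4, -0.54 to 0.37 for Dcdc2a and -0.43 to 0.52 for Glis3. Between stages in controls it ran from -0.0615 to 0.0931 for Krt7, -0.11 to 0.15 for Slc4a4 and -0.0899 to 0.14 for Dcdc2a. In null-labelled pools it ran from -0.56 to 0.0776 for Spp1, -0.0474 to 0.30 for Krt7, -0.56 to 0.34 for Dcdc2a and -0.88 to 0.0628 for Glis3. Relative to the epithelial genes it ran from -0.18 to 0.17 for Spp1, -0.0894 to 0.21 for Muc1, -0.0472 to 0.41 for Krt19, 0.22 to 0.35 for Dcdc2a and 0.30 to 0.51 for Glis3. Depth limits Cftr, with 6 to 38 reads a library. The ratios without the libraries numbered 1 were not run.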
